A study of Mus musculus with 6 samples.

Results

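A set of 10 genes that mark the first endothelial and blood progenitors of the mouse embryo was followed in wild type (WT) and *Bdh2*-knockout advanced embryonic stem cells (ASCs), namely *Kdr*, *Flt1*, *Flt4*, *Tek*, *Tie1*, *Cdh5*, *Pecam1*, *Etv2*, *Lmo2* and *Mef2c*. They were chosen by name, with the difference of *Kdr* and *Mef2c* between the genotypes already known, and they are 10 of the 54715 genes in the count table. The comparison of these 10 genes between genotypes is therefore a description: their p-values are not printed, and where the text says that one of them passed or missed the threshold, this describes its place among all genes and supports nothing. ASCs are mouse ESCs held between the naive and the primed pluripotent state, grown on fibronectin in N2B27 medium with leukemia inhibitory factor, CHIR99021 (a GSK3 inhibitor), activin A and BMP4. The ASCs of both genotypes came from a 129/sv female mated with a GOF/GFP male, whose transgene reports *Oct4* activity by green fluorescence, and the knockout (*Bdh2*-/-) was made in them with CRISPR/Cas9 and a pair of sgRNAs, after which single colonies were picked as lines and an ASC line with a bi-allelic frameshift deletion was taken for later work. The 3 WT libraries and the 3 *Bdh2*-knockout libraries carry no other treatment or time point, the age of the cultures is not given in the sources used here, and no source says whether the 3 libraries of a genotype are separate cultures of 1 line, so errors and p-values measure only the spread between these libraries.

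*Kdr* encodes VEGFR2 (also called Flk1), the main signalling receptor for vascular endothelial growth factor (VEGF), and is an early marker of the mesoderm from which both blood and endothelium arise. In that mesoderm the ETS factor Etv2 switches on the endothelial and blood programme together with partners such as Lmo2 and Tal1, and the receptors *Flt1*, *Flt4*, *Tek* and *Tie1* and the junction proteins of *Cdh5* and *Pecam1* follow as endothelium forms. *Pecam1* stands apart from the others because undifferentiated mouse pluripotent cells also carry it on their surface.

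The windows around the transcription starts of the 3 VEGF receptor genes are shown first, because these receptors carry the main contrast among the 10 genes: *Kdr* and *Flt1* had higher levels in *Bdh2*-knockout ASCs, and *Flt4* had overlapping levels in both genotypes. Each window holds 250 bases before and 50 bases after the start in RefSeq (GRCm38.p6), written 5′ to 3′ on the strand of the gene, and capitals mark every GGAA, the core that ETS factors such as Etv2 bind, on either strand (TTCC when read on the printed strand). The *Kdr* window is chr5:75978406-75978705 on the minus strand, that of *Flt1* is chr5:147725962-147726261 on the minus strand, and that of *Flt4* is chr11:49609429-49609728 on the plus strand.
Kdr: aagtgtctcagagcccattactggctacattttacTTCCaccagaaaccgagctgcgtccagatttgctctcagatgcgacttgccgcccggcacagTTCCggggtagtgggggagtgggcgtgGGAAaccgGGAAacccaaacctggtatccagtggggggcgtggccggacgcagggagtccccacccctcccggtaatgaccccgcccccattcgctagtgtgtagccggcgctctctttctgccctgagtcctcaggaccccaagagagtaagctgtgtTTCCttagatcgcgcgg
Flt1: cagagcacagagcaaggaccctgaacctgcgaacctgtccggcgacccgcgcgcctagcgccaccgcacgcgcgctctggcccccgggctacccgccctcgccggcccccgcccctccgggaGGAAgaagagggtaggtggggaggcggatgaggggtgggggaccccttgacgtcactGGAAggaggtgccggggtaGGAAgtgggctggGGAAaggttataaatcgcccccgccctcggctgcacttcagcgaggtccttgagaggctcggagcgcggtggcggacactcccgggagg
Flt4: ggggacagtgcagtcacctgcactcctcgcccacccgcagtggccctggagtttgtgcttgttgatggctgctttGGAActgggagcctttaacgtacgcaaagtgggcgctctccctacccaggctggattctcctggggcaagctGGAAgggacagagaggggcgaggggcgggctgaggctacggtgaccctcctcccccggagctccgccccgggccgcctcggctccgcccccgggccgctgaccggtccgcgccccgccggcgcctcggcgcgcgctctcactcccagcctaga
GGAA occurred 5 times in the *Kdr* window, 4 times in that of *Flt1* and 2 times in that of *Flt4*. It is a short and common word: 96.0% of 32851 promoter windows of this length held it at least once, with a median of 3, and 46.3% held it 4 times or more. RefSeq windows were at hand for 7 of the 10 genes, and among the others the window of *Etv2* held 11 matches, that of *Tie1* 9, that of *Tek* 2 and the 3 start sites of *Mef2c* 9, 3 and 3. The GC box GGGCGG, on either strand, was found 2 times in the *Kdr* window and 3 times each in those of *Flt1* and *Flt4*. At least 1 match was present in 35.7% of all windows. The share of G and C was 60.7% in the *Kdr* window, 70.7% in that of *Flt1* and 70.3% in that of *Flt4*, against a median of 52.7% over all windows. The GATA motif AGATAA (11.2% of windows) was found in the *Tek* window alone among the 7 genes, and the SOX motif ACAAAG (18.7% of windows) in those of *Tek* and of starts 1 and 3 of *Mef2c*. The letters TATAAA (13.6% of windows) were found in the *Flt1* window and in those of starts 1 and 2 of *Mef2c*. These are matches of letters only, and binding was not measured.

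The libraries held 18927748 to 24945216 counts on genes in WT ASCs and 24320119 to 28333541 in *Bdh2*-knockout ASCs. By these totals 3 counts correspond to between 0.106 and 0.158 CPM (counts scaled to a common library size), and lower levels are not told from counting error. Other CPM values use TMM library sizes, with factors between 0.9735 and 1.027, so their scale differs slightly from this floor. *Bdh2* itself was at 9.43 ± 1.10 CPM in WT and 5.44 ± 0.485 CPM in *Bdh2*-knockout ASCs (SD, n = 3), which on the log2 scale is a difference of -0.79 (standard error, SE, 0.12, adjusted p = 2.46e-04, edgeR), with all knockout libraries below all WT libraries. Transcripts of adult hepatocytes were present in unequal amounts: *Alb*, the albumin gene, stood at 331, 197 and 22.0 CPM in WT replicates 1, 2 and 3 and at 17.3, 88.3 and 8.68 CPM in the knockout replicates. A list of 20 hepatocyte markers summed to 55.8 to 576 CPM in WT and 31.3 to 169 CPM in knockout libraries. By edgeR 0 of 19 tested were higher and 16 lower, 84.2% against 41.7% of all tested genes. At an unadjusted p under 0.05, edgeR gave 0 higher and 18 lower. DESeq2 called 0 in either direction, with 0 higher and 4 lower at an unadjusted p under 0.05. Results are also given without WT replicates 1 and 2 where this matters. Of 16758 genes with enough counts to be tested, 41.7% passed an adjusted p under 0.05 (21.0% higher and 20.8% lower in *Bdh2*-knockout ASCs), and in 52.4% the libraries of one genotype all lay above those of the other. The median log2 fold change of all tested genes was -0.013. Scaled by library totals instead of edgeR's TMM factors, the called genes split into 2731 higher and 4451 lower, and that median was -0.071.

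Of the 10 genes, 9 had enough counts to be tested and *Cdh5* did not. At an adjusted p under 0.05, 3 of them (*Kdr*, *Flt1* and *Mef2c*) were higher in *Bdh2*-knockout ASCs, where 21.0% of all tested genes were higher, and 1 (*Pecam1*) was lower, where 20.8% were lower. The other 5 did not pass. With library totals 3 were higher and 2 lower, the added one being *Tie1*. The genotypes did not overlap in 6 of the 10, with the knockout libraries above in *Kdr*, *Flt1*, *Tek* and *Mef2c* and below in *Tie1* and *Pecam1*, and 52.4% of all tested genes were apart in this way. Since *Mef2c* passed the filter on low counts through its knockout libraries and *Tie1* through its WT libraries, and since the genes were chosen on this contrast, nothing is read from these counts.

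**Figure D1:**
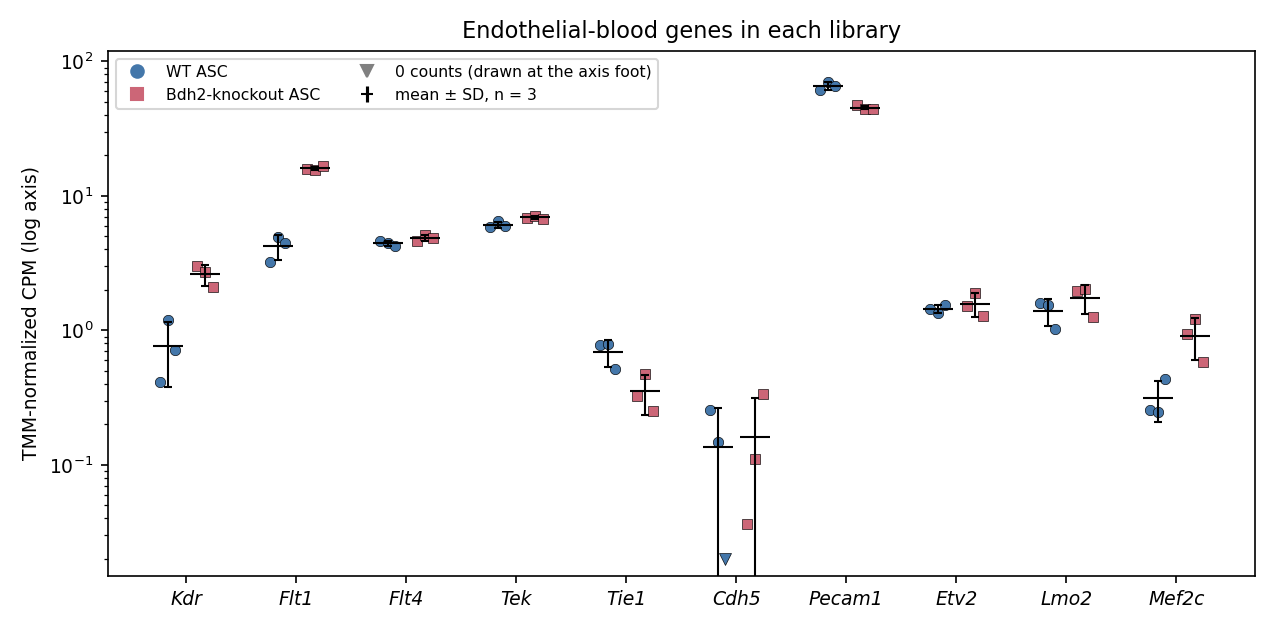
TMM-normalized CPM on a log axis for each of the 10 genes in 3 WT (blue circles) and 3 *Bdh2*-knockout ASC libraries (red squares), with the mean ± SD of each genotype. *Flt1* and *Kdr* show the knockout squares well above the WT circles, *Pecam1* stands highest with its knockout squares below, and *Cdh5* lies at a few counts, with 1 WT library at 0.

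*Kdr* (ENSMUSG00000062960) lies on the minus strand of chromosome 5 of GRCm38 from 75932827 to 75978458. It was counted 8, 24 and 18 times in WT replicates 1, 2 and 3 and 83, 74 and 50 times in *Bdh2*-knockout replicates 1, 2 and 3. These counts are 0.412, 1.19 and 0.712 CPM in WT and 3.01, 2.71 and 2.09 CPM in knockout ASCs. Every knockout library was above every WT library, and the WT libraries differed among themselves nearly as much, in proportion, as the genotypes did. The mean rose from 0.771 ± 0.392 to 2.60 ± 0.473 CPM (SD, n = 3), or 1.75 on the log2 scale (SE 0.30). It was 1.48 without WT replicate 1, 2.17 without WT replicate 2, and 1.87 (SE 0.36) without both. In bulk RNA more cells with a transcript and more of it per cell cannot be told apart, here or for the genes that follow.

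*Flt1* (ENSMUSG00000029648, chromosome 5, minus strand, 147561604 to 147726011) encodes VEGFR1, which binds VEGF-A more tightly than VEGFR2 does but signals weakly, and a soluble form of it takes up ligand. It was counted 63, 100 and 113 times in WT and 434, 428 and 398 times in *Bdh2*-knockout replicates. The level was 3.25, 4.95 and 4.47 CPM in WT and 15.8, 15.7 and 16.6 CPM in knockout libraries, which is 4.22 ± 0.881 against 16.0 ± 0.511 CPM (SD, n = 3). The knockout libraries were close to each other and all above the WT libraries. Its log2 fold change, 1.91 (SE 0.12), was the largest of the 9 by a margin smaller than the SE of *Kdr*, which was ahead at 2.17 against 2.03 without WT replicate 2 and at 1.87 against 1.84 without WT replicates 1 and 2. The value of *Flt1* lay between 1.77 and 2.03 with each library left out in turn.

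*Flt4* (ENSMUSG00000020357, chromosome 11, plus strand, 49609263 to 49652739) encodes VEGFR3, the receptor for VEGF-C and VEGF-D in lymphatic endothelium. Its level was 4.64, 4.46 and 4.27 CPM in WT and 4.61, 5.13 and 4.88 CPM in *Bdh2*-knockout libraries, from 90 to 140 counts. The genotypes overlapped, and the log2 fold change was 0.13 (SE 0.13).

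Levels of different genes were compared per length, as FPKM (counts scaled to gene length and library total). The summed FPKM of the 3 VEGF receptor genes was 0.871, 1.06 and 0.941 in WT and 2.0, 2.04 and 2.02 in *Bdh2*-knockout libraries, without overlap. Within this sum the share of *Flt1* was 33.1% ± 4.13 in WT and 57.4% ± 2.21 in knockout ASCs (SD, n = 3). The share of *Flt4* was 58.1% ± 7.35 and 28.7% ± 1.37, and that of *Kdr* 8.85% ± 3.68 and 13.9% ± 2.53. *Flt4* thus had the highest FPKM of the 3 in WT ASCs and *Flt1* in knockout ASCs, whereas *Kdr* had the lowest in both. The length used is that of all annotated exons of a gene, 13504 bases for *Flt1* and 8232 for *Flt4*. In WT ASCs the mean counts of *Flt1* and *Flt4* were close, at 92.0 and 96.0, so the lead of *Flt4* there rests on this length.

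**Figure D2:**
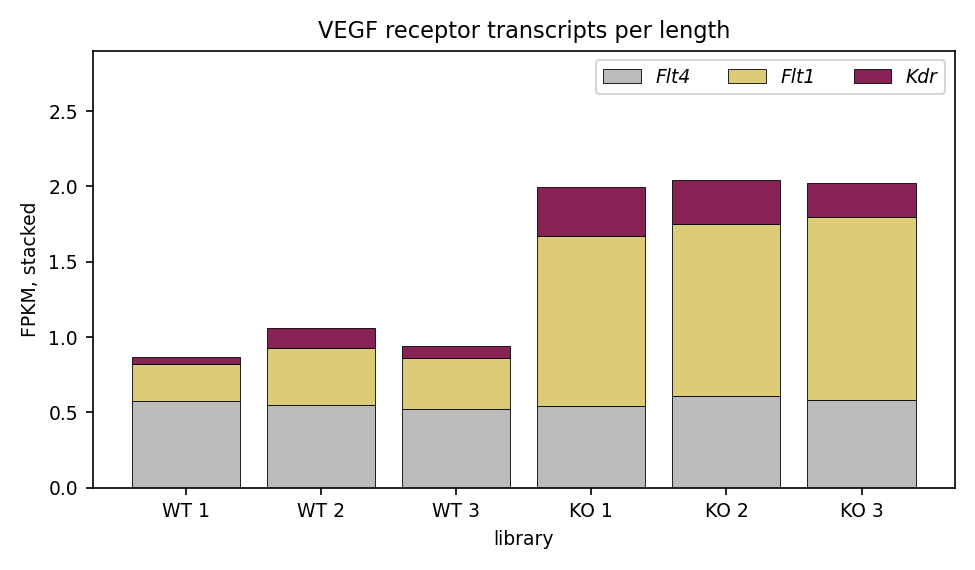
Stacked bars of the FPKM of *Flt4* (grey), *Flt1* (yellow) and *Kdr* (purple) in each WT and *Bdh2*-knockout (KO) ASC library. The bars end between 0.871 and 1.06 in WT and between 2.0 and 2.04 in knockout libraries, while the *Flt4* segment keeps about the same height.

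The ligands and co-receptors of these receptors moved in both directions. Of 9 tested genes of this group, 3 were higher (*Ptprb*, *Nrp1* and *Vegfc*) and 2 lower (*Vegfa* and *Vegfb*), 55.6% in all against 41.7% of all tested genes, at a median log2 fold change of 0.22 against -0.013 over all genes. That median was 0.14 without WT replicate 1 or knockout replicate 2 and 0.34 without knockout replicate 1, and 1 lower gene was called in place of 2 without any 1 of WT replicates 1 and 3 and knockout replicates 1 and 3. *Vegfa*, the ligand that Flt1 and Kdr share, was counted 1732, 2372 and 2247 times in WT and 2024, 1441 and 1656 times in *Bdh2*-knockout replicates. Its level fell from 98.6 ± 16.4 to 65.1 ± 10.9 CPM (SD, n = 3), or -0.60 on the log2 scale (SE 0.12, adjusted p = 0.00141, edgeR), with the knockout libraries all below. *Vegfc*, the ligand of Flt4, rose from 8.87 ± 1.56 to 12.3 ± 0.408 CPM (log2 fold change 0.47, SE 0.11, adjusted p = 0.00562, edgeR). *Nrp1*, a co-receptor of VEGFR2, had 43 to 59 counts in WT and 98 to 102 in knockout libraries, and its log2 fold change was 0.76 (SE 0.16, adjusted p = 0.00235, edgeR). *Ptprb*, the phosphatase VE-PTP that acts on Tek, rose from 0.502 ± 0.093 to 1.21 ± 0.246 CPM (log2 fold change 1.28, SE 0.31, adjusted p = 0.00512, edgeR). *Vegfb*, a ligand of Flt1 named here because the count is small, was at -0.26 on the log2 scale (adjusted p = 0.0244, edgeR), with overlapping libraries. *Nrp2* (0.047), *Vegfd* (0.22), and the Flt1 ligand gene *Pgf* (-0.17) did not pass.

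Genes that act downstream of VEGF receptors also moved both ways. Of 28 tested, 11 were higher and 7 lower (64.3%, against 41.7% of all tested genes), at a median log2 fold change of 0.06, and with library totals the counts were 9 and 8 and the median 0.0028. The median was 0.021 without WT replicate 2 and between 0.061 and 0.095 without any other 1 library. DESeq2 called 10 higher and 4 lower. With a covariate of hepatocyte markers in the edgeR model, 7 were higher and 4 lower, and the median was 0.027. *Dok2*, an adaptor that binds Tek, rose from 7.82 ± 0.407 to 18.7 ± 0.534 CPM (log2 fold change 1.26, SE 0.081, adjusted p = 2.31e-07, edgeR), without overlap of the libraries. *Cav1*, caveolin of the endothelial membrane, rose from 0.921 ± 0.200 to 1.78 ± 0.354 CPM (0.94, SE 0.26), and *Rasip1*, needed for vessel lumens, from 5.19 ± 0.0803 to 8.08 ± 0.485 CPM (0.64, SE 0.11). *Nos3*, the endothelial nitric oxide synthase, fell from 3.55 ± 0.512 to 2.06 ± 0.525 CPM (-0.80, SE 0.21). Exons of other genes cover 42.9% of the exon bases of *Rasip1* and 32.3% of those of *Nos3*, so their counts may include reads of those genes. *Cdc42* and *Ptpn11*, the most abundant members that did not pass, had log2 fold changes of -0.014 and 0.0014. Without WT replicates 1 and 2 only 5 of these genes were higher and 2 lower, in a test with 1 WT library.

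The Tie receptors bind angiopoietins and control the quiescence of vessels. *Tek* (ENSMUSG00000006386, chromosome 4, plus strand, 94739289 to 94874976), the receptor Tie2, stood at 5.87, 6.49 and 5.94 CPM in WT and 6.90, 7.11 and 6.76 CPM in *Bdh2*-knockout libraries, from 114 to 194 counts. All knockout values were above all WT values, by a small margin, and the log2 fold change, 0.18 (SE 0.11), did not pass. *Tie1* (ENSMUSG00000033191, chromosome 4, minus strand, 118471191 to 118490061), the partner receptor without a well-established ligand of its own, was counted 15, 16 and 13 times in WT and 9, 13 and 6 times in knockout replicates. Its level was 0.773, 0.793 and 0.515 CPM against 0.327, 0.477 and 0.250 CPM, with the knockout libraries below. Its log2 fold change, -0.94 (SE 0.38), did not pass. It passed with library totals (-1.0) and without WT replicate 3 (-1.13), and was -0.54 (SE 0.63) without WT replicates 1 and 2. Of the angiopoietins, *Angpt2* had 6 to 20 counts in a library and a log2 fold change of 0.68 that did not pass, *Angpt4* had at most 3 counts in every library, and *Angpt1* was counted 1 to 7 times and was not tested.

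*Pecam1* (ENSMUSG00000020717, chromosome 11, minus strand, 106654217 to 106750628), which encodes the adhesion protein CD31, was by far the most abundant of the 10. It was counted 1190, 1415 and 1671 times in WT and 1294, 1214 and 1067 times in *Bdh2*-knockout replicates, which is 61.3, 70.1 and 66.1 CPM against 47.0, 44.5 and 44.5 CPM. All knockout libraries lay below all WT libraries. The mean fell from 65.8 ± 4.41 to 45.3 ± 1.41 CPM (SD, n = 3), a ratio of 0.689, or -0.54 on the log2 scale (SE 0.058). *Cdh5* (ENSMUSG00000031871, chromosome 8, plus strand, 104101625 to 104144511), which encodes VE-cadherin, the adhesion molecule that defines endothelial junctions, was counted 5, 3 and 0 times in WT and 1, 3 and 8 times in knockout replicates. These values are 0.135 ± 0.129 and 0.160 ± 0.155 CPM, near the level of 3 counts, and no difference between the genotypes was detectable at this depth.

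Other endothelial surface and junction genes gave a similar mixture. Of 20 tested, 7 were higher (*Esam*, *Cd34*, *Robo4*, *She*, *Jam2*, *Eng* and *Icam1*) and 4 lower (*Vwf*, *Ecscr*, *Egfl7* and *Jam3*), 55.0% in all against 41.7% of all tested genes, at a median log2 fold change of 0.23 that was 0.093 without WT replicate 3. DESeq2 called 7 higher and 2 lower, and exons of other genes cover 36.2% of the exon bases of *Jam3*, 11.7% of those of *Icam1* and 11.2% of those of *Egfl7*. *Esam*, an adhesion molecule of endothelial junctions, was counted 18 to 21 times in WT and 88 to 106 times in *Bdh2*-knockout libraries and rose from 0.908 ± 0.166 to 3.63 ± 0.377 CPM (log2 fold change 2.0, SE 0.21, adjusted p = 1.32e-05, edgeR). *Cd34*, a surface protein of endothelial and blood progenitors, rose from 2.33 ± 0.491 to 5.58 ± 0.378 CPM (1.24, SE 0.17, adjusted p = 8.76e-05, edgeR). *Robo4*, the endothelial Roundabout receptor, rose from 4.08 ± 0.229 to 9.30 ± 0.524 CPM (1.19, SE 0.11, adjusted p = 5.51e-06, edgeR). *Vwf*, which encodes the clotting protein von Willebrand factor, fell from 5.17 ± 0.622 to 2.28 ± 0.0919 CPM (-1.18, SE 0.16, adjusted p = 8.17e-05, edgeR). The libraries of the genotypes did not overlap in these 4 genes. *Mcam* (0.051) and *Mmrn2* (-0.063) were the most abundant genes that did not pass. *Emcn*, *Clec14a*, *Cd93*, *Sele* and *Selp*, which mark formed endothelium, had at most 3 counts in every library.

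Arterial, venous and Notch genes split between the directions. Of 15 tested, 4 were higher (*Efnb2*, *Dll1*, *Jag1* and *Jag2*) and 3 lower (*Gja4*, *Hey1* and *Ephb4*), 46.7% in all against 41.7% of all tested genes, at a median log2 fold change of -0.011 that lay between -0.084 and 0.054 with each library left out in turn, and with library totals 3 were higher and 4 lower, and by DESeq2 4 and 1. *Efnb2*, the arterial ephrin ligand, was counted 172, 193 and 235 times in WT and 849, 832 and 706 times in *Bdh2*-knockout replicates and rose from 9.24 ± 0.354 to 30.3 ± 0.710 CPM (log2 fold change 1.71, SE 0.069, adjusted p = 4.29e-09, edgeR). *Ephb4*, its venous receptor, fell from 80.2 ± 6.33 to 61.7 ± 1.35 CPM (-0.38, SE 0.06, adjusted p = 2.95e-04, edgeR). *Dll1*, a Notch ligand, rose by 0.73 (SE 0.18) on the log2 scale, while the gap junction gene *Gja4* fell by 0.90 (SE 0.27) and the Notch target *Hey1* by 0.48 (SE 0.16). An antisense gene covers 20.5% of the exon bases of *Dll1*. *Unc5b* (-0.13) and *Notch1* (0.04) did not pass.

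The 3 transcription regulators among the 10 genes had low counts, at most 55 in any library. *Etv2* (ENSMUSG00000006311, chromosome 7, minus strand, 30633616 to 30635852) was counted 28, 27 and 39 times in WT and 42, 52 and 31 times in *Bdh2*-knockout replicates. Its level was 1.44, 1.34 and 1.54 CPM against 1.52, 1.91 and 1.29 CPM, so the genotypes overlapped. The log2 fold change was 0.13 (SE 0.23), and it was -0.028 without knockout replicate 2 and 0.26 without knockout replicate 3. *Lmo2* (ENSMUSG00000032698, chromosome 2, plus strand, 103957986 to 103981878), which encodes the LIM-only protein that bridges transcription factors in blood and endothelial complexes, was counted 31, 31 and 26 times in WT and 54, 55 and 30 times in knockout replicates. The levels of 1.60, 1.54 and 1.03 CPM and of 1.96, 2.02 and 1.25 CPM overlapped, with replicate 3 the lowest of each genotype, and the log2 fold change was 0.35 (SE 0.26). It was 0.17 without WT replicate 3, 0.24 without knockout replicate 2 and 0.76 (SE 0.39) without WT replicates 1 and 2.

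*Mef2c* (ENSMUSG00000005583, chromosome 13, plus strand, 83504034 to 83667080), a MADS-box factor of muscle, heart and early endothelium, was counted 5, 5 and 11 times in WT and 26, 33 and 14 times in *Bdh2*-knockout replicates. Its level was 0.258, 0.248 and 0.435 CPM against 0.944, 1.21 and 0.584 CPM. The lowest knockout library was above the highest WT library by a few counts per library only. The mean rose from 0.314 ± 0.106 to 0.913 ± 0.314 CPM (SD, n = 3), a ratio of 2.91 and a log2 fold change of 1.5 (SE 0.40). The call was lost without knockout replicate 2 (1.25, SE 0.46) and without WT replicates 1 and 2 (1.07, SE 0.57).

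Among other endothelial and blood transcription factors, 8 of 24 tested were higher and 2 lower (*Myb* and *Foxc2*), 41.7% in all, as over all tested genes. *Foxc2* passed the filter on low counts through its WT libraries alone, so its call is not read as a result. The median log2 fold change was 0.11. It was -0.048 without knockout replicate 2, 0.2 without knockout replicate 3 and 0.18 without WT replicate 2. Without WT replicates 1 and 2 it was 0.05, and with library totals 0.051 (7 higher and 3 lower). DESeq2 called 6 higher and 1 lower. *Sox17* rose from 28, 21 and 34 counts in WT to 250, 274 and 282 in *Bdh2*-knockout replicates (log2 fold change 3.00, SE 0.16, adjusted p = 4.77e-08, edgeR), and *Sox7* from 11, 12 and 27 to 144, 128 and 134 (2.75, SE 0.23, adjusted p = 1.67e-06, edgeR). Both are SoxF factors of endothelium and of primitive endoderm, and an opposite-strand gene covers 16.8% of the exon bases of *Sox17*. *Runx1*, required for the first blood stem cells, was counted 78, 121 and 120 times in WT and 245, 250 and 217 times in knockout replicates and rose from 4.92 ± 0.999 to 9.04 ± 0.139 CPM (0.88, SE 0.13, adjusted p = 2.22e-04, edgeR). *Spi1*, the myeloid factor PU.1, rose from 8, 19 and 14 to 33, 44 and 23 counts (0.99, SE 0.34, adjusted p = 0.0325, edgeR). Of the Lmo2 partners, *Tcf12* passed with overlapping libraries (0.16, SE 0.058, adjusted p = 0.0358, edgeR), named here after its value was seen, and the others did not: *Tal1* was at 0.70 on the log2 scale (adjusted p = 0.101, edgeR) with overlapping libraries, *Ldb1* of -0.11 and *Tcf3* of -0.057. *Fli1*, an ETS factor downstream of Etv2, was counted 0 to 4 times and *Erg* 0 to 6 times in a library, and neither was tested.

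Of 11 tested blood cell genes, 0 were higher and 2 lower (18.2%, against 41.7% of all tested genes), at a median log2 fold change of 0.063 that was -0.0055 without WT replicate 1. *Kit*, the stem cell factor receptor, fell from 71.5 ± 0.866 to 49.6 ± 2.20 CPM (-0.53, SE 0.052, adjusted p = 6.52e-06, edgeR), and *Alas2*, a heme enzyme of red cells named here because the count is small, was at 0.722 ± 0.180 and 0.320 ± 0.0887 CPM. *Alas2* passed the filter on low counts through its WT libraries alone, so its call is not read as a result. At an unadjusted p under 0.05, edgeR gave 0 higher and 3 lower, and DESeq2 with adjustment 0 higher and 1 lower. *Spn* (0.018) and *Cd44* (0.16) did not pass. The embryonic globin genes *Hba-x*, *Hbb-bh1* and *Hbb-y* had 0 counts in all 6 libraries, below the 0.106 to 0.158 CPM that 3 counts amount to, and *Pf4*, *Gp9*, *Rhag* and *Ermap* at most 3 in each.

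The mesoderm in which *Kdr* is first switched on has its own markers, and of 18 tested 9 were higher and 3 lower (66.7%, against 41.7% of all tested genes), at a median log2 fold change of 0.22. One of the higher genes, *Lhx1*, passed the filter on low counts through its knockout libraries alone, so its call is not read as a result. Without WT replicates 1 and 2 the counts were 6 and 3 and the median 0.019. *Pdgfra*, the platelet-derived growth factor receptor of paraxial mesoderm and also of primitive endoderm, was counted 48, 61 and 49 times in WT and 226, 300 and 265 times in *Bdh2*-knockout replicates (log2 fold change 2.04, SE 0.17, adjusted p = 1.98e-06, edgeR). *Eomes*, a T-box factor of the primitive streak, rose from 21.7 ± 2.04 to 40.0 ± 1.5 CPM (0.88, SE 0.07, adjusted p = 1.23e-06, edgeR), *Nodal*, the ligand that induces mesoderm and endoderm, from 37.2 ± 3.10 to 66.5 ± 0.641 CPM (0.83, SE 0.06, adjusted p = 5.34e-07, edgeR), and *Wnt3* from 3.50 ± 0.188 to 7.42 ± 0.301 CPM (1.08, SE 0.12, adjusted p = 2.33e-05, edgeR). The 3 lower genes, named because the count is small, were *T* (-0.38, with overlapping libraries), the mesoderm factor *Hand1* (-0.73) and *Apela* (-0.42), whose exon bases are covered to 29.6% by another gene. DESeq2 called 8 higher and 1 lower. *Snai1* (0.16) and *Mixl1* (-0.024) did not pass.

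Relatives and regulators of *Mef2c* and other heart genes moved both ways. Of 14 tested, 3 were higher (*Gata6*, *Gata4* and *Tbx20*) and 3 lower (*Mef2b*, *Hdac7* and *Tnnt2*), 42.9% in all against 41.7% of all tested genes. With library totals 3 were higher and 6 lower, and by DESeq2 3 and 2. The median log2 fold change was -0.12. That median was -0.058, -0.06 and -0.061 without WT replicate 2, WT replicate 3 and knockout replicate 1 in turn, and 0.00077 without WT replicates 1 and 2. *Tnnt2* passed the filter on low counts through its WT libraries alone, so its call is not read as a result. Among the other MEF2 genes, *Mef2b* was counted 235, 281 and 342 times in WT and 218, 139 and 158 times in *Bdh2*-knockout replicates and fell from 13.2 ± 0.956 to 6.53 ± 1.41 CPM (-1.01, SE 0.14, adjusted p = 7.85e-05, edgeR). *Mef2d* (-0.065) and *Mef2a* (0.16, named with its relatives) did not pass, nor did *Hdac4* (-0.12), a deacetylase that represses MEF2 factors. *Gata6* and *Gata4*, GATA factors of heart and endoderm, had log2 fold changes of 2.02 (SE 0.17) and 1.89 (SE 0.093), and *Tbx20*, a cardiac T-box factor, of 0.76 (SE 0.18).

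**Figure D3:**
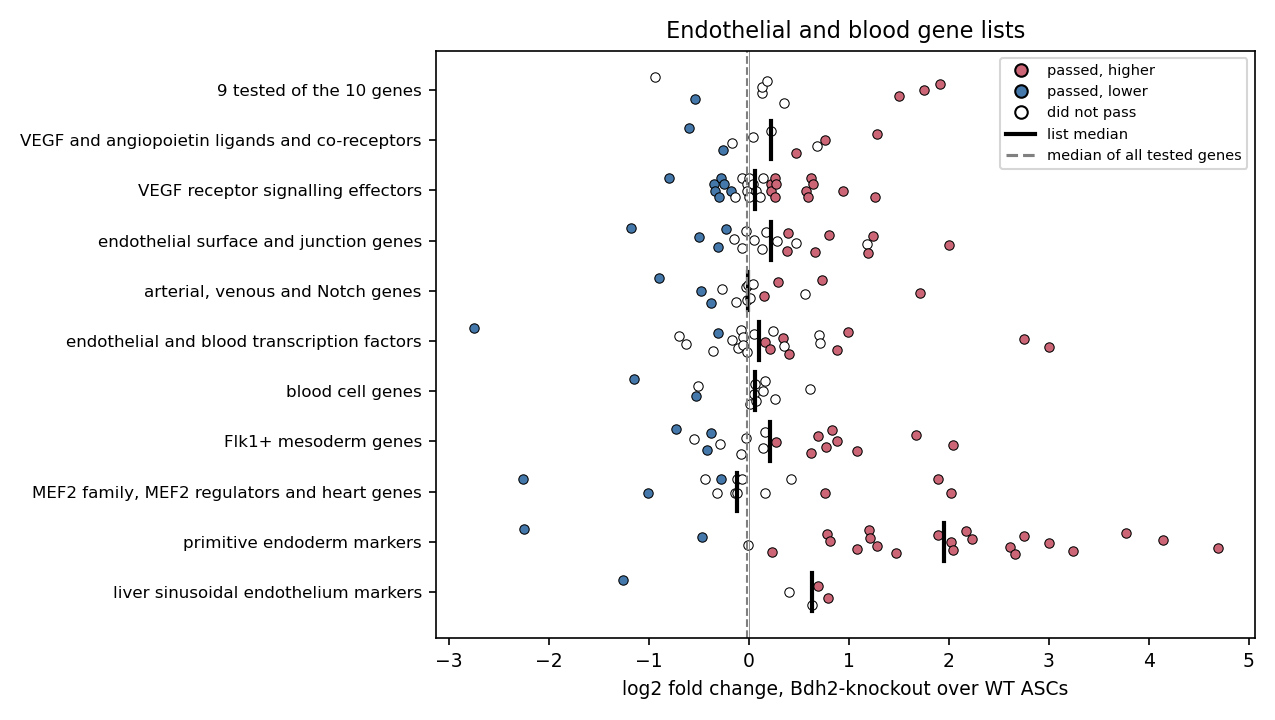
Log2 fold changes of *Bdh2*-knockout over WT ASCs for each tested gene (points) of the 10 genes and of the groups named on the axis, with higher (red) and lower (blue) genes at an adjusted p under 0.05 (edgeR), others white, black bars at group medians and a dashed line at the median of all tested genes, -0.013. Most groups plotted here spread to both sides of the line, with medians from -0.12 to 0.63. The primitive endoderm markers, chosen with the rise of some of them known, lie mostly to the right with a median of 1.95.

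Markers of other cell types were read beside these values. Of 24 tested primitive endoderm markers 21 were higher and 2 lower (*Ttr*, also in the hepatocyte list, and *Hnf4a*), 95.8% against 41.7% of all tested genes. DESeq2 called 21 and 0 (1 lower at an unadjusted p under 0.05). *Foxa2*, *S100g* and *Srgn* passed the filter on low counts mainly through their knockout libraries, so their calls are not read as results. The list was chosen with earlier results of these data known. Of its genes, the authors had reported *Gata4*, *Gata6*, *Sox7*, *Sox17* and *Pdgfra* as higher. Its share and median therefore describe the list and are no test. The list summed to 2060 to 2250 CPM in WT and 2760 to 2900 CPM in *Bdh2*-knockout libraries. It moved with *Kdr* and *Flt1* and shares *Pdgfra*, *Gata4*, *Gata6*, *Sox7* and *Sox17* with the groups above, and its part in their values was not tested. Of 16 tested pluripotency markers 10 were higher and 1 lower (68.8%, against 41.7% of all tested genes), and the list summed to 8460 to 8680 CPM in WT and 8940 to 9020 CPM in knockout libraries, so the libraries hold abundant transcripts of the labelled cell type. Markers of liver sinusoidal endothelium, which expresses *Kdr* and *Flt4*, summed to 16.4 to 19.4 CPM in WT and 23.7 to 27.9 CPM in knockout libraries, without overlap. Of 5 tested, 2 were higher (*Ehd3* and *Mrc1*) and 1 lower (*Gpr182*, which passed the filter mainly through its WT libraries), 60.0% against 41.7% of all tested genes, with 2 and 0 by DESeq2 (1 lower at an unadjusted p under 0.05). Of the list, *Lyve1*, *Oit3* and *Bmp10* had at most 3 counts in every library. Adult red cell markers summed to 1.15 to 1.85 CPM in WT and 0.653 to 1.06 CPM in knockout libraries, with *Alas2* the single tested and lower gene and the globin genes *Hba-a2*, *Hbb-bs* and *Hbb-bt* at 3 counts or fewer. Feeder fibroblast markers summed to 37.8 to 43.1 and 38.4 to 44.8 CPM, with *Fbn1* higher and *Col1a1* lower of 8 tested. The part of the liver endothelium, red cell and fibroblast lists in the values was not tested.

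Among themselves the 10 genes spanned a wide range of levels per length. The length is that of all annotated exons of a gene (15715 bases for *Mef2c*), so the order depends on that choice. In WT ASCs *Pecam1* stood first at 10.8 FPKM, followed by *Etv2* at 1.40 and *Tek* at 1.32, *Lmo2* at 0.653 and *Flt4* at 0.552, *Flt1* at 0.319, and then *Tie1* at 0.144, *Kdr* at 0.0869, *Cdh5* at 0.033 and *Mef2c* at 0.0203. The ranges of the 3 libraries overlapped between *Etv2* and *Tek*, between *Lmo2* and *Flt4*, and between each neighbouring pair from *Tie1* to *Mef2c*, so those neighbours do not differ beyond their spread. In *Bdh2*-knockout ASCs *Pecam1* was again first at 7.13 FPKM, followed by *Etv2* at 1.47, *Tek* at 1.44, *Flt1* at 1.16, *Lmo2* at 0.787, *Flt4* at 0.580, *Kdr* at 0.282, *Tie1* at 0.0699, *Mef2c* at 0.0568 and *Cdh5* at 0.0374. Here *Etv2* and *Tek*, *Lmo2* and *Flt4*, and the last 3 genes overlapped, whereas *Flt1* now lay above *Lmo2* and *Flt4*, and *Kdr* above *Tie1*, beyond the range of the libraries. TPM gave the same order in both genotypes. Against all genes with any count, *Pecam1* was at percentile 84.7 in WT and 80.4 in knockout ASCs, *Etv2* at 62.5 and 64.1, and *Lmo2* at 55.1 and 58.6. *Flt1* was at percentile 47.7 and 62.0, *Kdr* at 32.6 and 48.6, and *Mef2c* at 17.8 and 30.4.

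The surroundings of the 10 genes were compared to see whether neighbours on the chromosome moved with them. Of 138 tested genes within 500 kb of any of the 10, 23 were higher and 36 lower, 42.8% against 41.7% of all tested genes. The median log2 fold change was -0.091, and -0.041 without WT replicates 1 and 2. With library totals 19 were higher and 56 lower, and the median was -0.15. Within 500 kb of *Kdr* 0 of 6 tested genes were higher and 3 were lower by edgeR (also at an unadjusted p under 0.05), and by DESeq2 0 were higher and 2 lower. Of 11 near *Flt1*, edgeR called 2 higher and 0 lower (4 and 0 at an unadjusted p under 0.05), and DESeq2 1 and 0. Near *Pecam1* 7 of 24 were higher and 5 lower, and near *Etv2*, in a gene-dense region, 6 of 47 were higher and 16 lower. Among called neighbours with a mean of at least 20 counts and no overlap of the genotypes, the largest changes were of *Sbsn* (-1.53), *Hspb6* (-1.20) and *Gapdhs* (-1.03) near *Etv2* and of *Cd59b* (-1.04) near *Lmo2*. An antisense gene, itself lower, covers 10.1% of the exon bases of *Gapdhs*. Next to *Mef2c* the single tested gene was the noncoding *C130071C03Rik*, 54.3 kb away and named for that reason, at 0.228 ± 0.173 CPM in WT and 0.623 ± 0.130 CPM in knockout libraries, a mean of 10.7 counts. It passed the filter on low counts through its knockout libraries alone, so its call by edgeR is not read as a result, and DESeq2 did not call it.

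*Kdr* lies in a cluster of receptor tyrosine kinase genes with *Kit* and *Pdgfra*. Within 1000 kb of *Kdr*, 15 other genes were tested, of which *Pdgfra*, 735 kb away, was the single higher one and 5 were lower, 40.0% in all, near the 41.7% of all tested genes. *Pdgfra* rose from 2.48 ± 0.541 to 10.1 ± 1.63 CPM, whereas *Kit*, between them at 276 kb from *Kdr*, was at 71.4, 72.4 and 70.6 CPM in WT and at 47.3, 51.7 and 49.8 CPM in *Bdh2*-knockout libraries, with no overlap. The other 4 lower genes were *Clock* (-0.31), *Pdcl2* (-0.81), *Aasdh* (-0.91) and *Paics* (-0.25), all on the far side of *Kdr* from *Kit*.

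**Figure D4:**
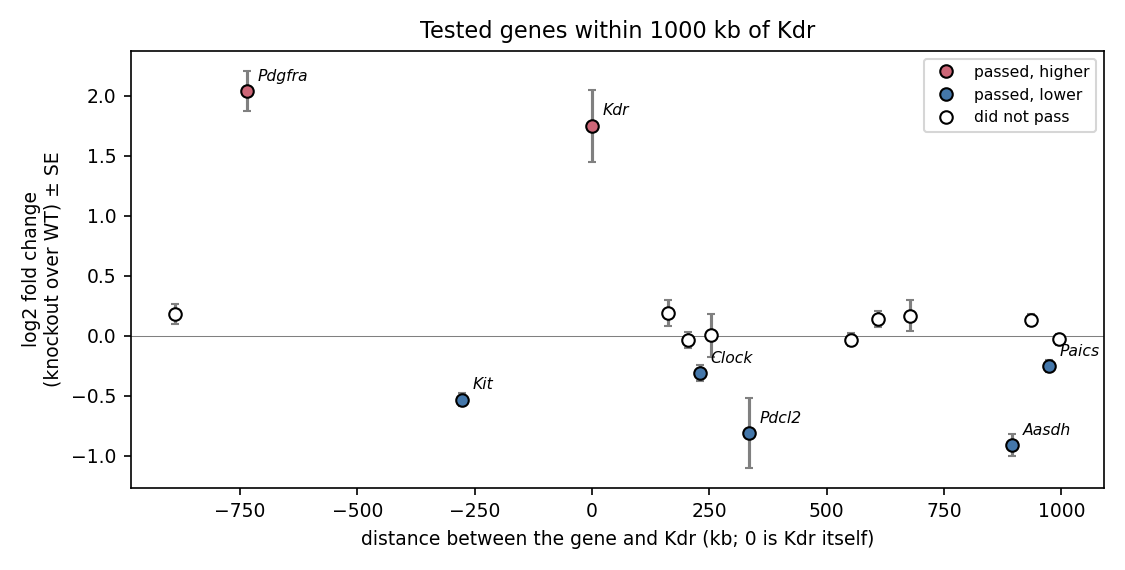
Log2 fold change (± SE) of *Bdh2*-knockout over WT ASCs for *Kdr*, at 0, and the 15 other tested genes within 1000 kb, by distance from *Kdr* in kb. *Pdgfra* at 2.04 and *Kdr* at 1.75 stand above the rest, *Kit* between them is at -0.53, and the other genes lie between -0.91 and 0.19.

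The genes whose log2 CPM followed that of *Kdr* most closely over the 6 libraries, of 12718 with a mean of at least 50 counts, were *Capn2* (Pearson r = 0.994), *Mapkapk2* (0.992), *Atf1* (0.991), *Homer2* (0.991) and *Zfp629* (0.991). These values describe the libraries, which share the split by genotype and differ in depth, and carry no test. Their log2 fold changes were smaller than that of *Kdr*: *Capn2*, a calpain subunit, rose from 14.2 ± 2.48 to 22.3 ± 1.11 CPM (0.65, SE 0.10), and *Mapkapk2*, a kinase downstream of p38, went from 31.9 ± 1.09 to 34.4 ± 0.315 CPM (0.11, SE 0.054) and did not pass.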

How the data were processed

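Total RNA of 3 WT and 3 *Bdh2*-knockout ASC samples was made into libraries with an Illumina TruSeq kit. The authors trimmed the reads, mapped them to GRCm38 with HISAT2 2.0.5, counted them on genes with FeatureCounts and deposited raw counts for 54715 genes with lengths and positions. The annotation release, the strand setting and the treatment of reads with several matches are not given in the sources used here. Samples were grouped by the genotype in the labels.

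The genotypes were compared by the quasi-likelihood F-test of edgeR 4.0.16 in R 4.3.3, after TMM scaling and the filterByExpr filter, with a model that held genotype alone. P-values of the 16758 genes tested were adjusted by the method of Benjamini and Hochberg (threshold 0.05). The procedure was checked on simulated counts, in which far fewer genes changed than were called here, equally in both directions. That check does not show how the scaling behaves with as many changes as here. The standard error is the log2 fold change divided by the root of F. CPM used TMM library sizes, and FPKM and TPM were computed here from counts, listed lengths and library totals. At the depth of 18927748 to 28333541 counts per library, the floor in CPM covers counting error only. SDs and standard errors also include the spread between the libraries. Alternatives were DESeq2 1.42.0 (the authors used another version of this tool), median-of-ratios factors, library totals, no filter, the replicate number as a block, a covariate of 19 hepatocyte markers, each library left out in turn, and, chosen after seeing the data, both WT libraries with the most *Alb* left out.

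The 10 genes and all gene lists were chosen with earlier results of these data known. Of each list, the text names up to 4 genes with the largest change that passed, with a mean of at least 20 counts and no overlap of the genotypes, and up to 2 abundant genes that did not pass; other names were added after their values were seen. All 10 genes have the same coordinates in GENCODE M21, and 0% of their exon bases lie in exons of other genes. Gene lists were described by counts and medians, without a set test. Promoter windows were taken from RefSeq, for 7 of the 10 genes. Tables were handled in pandas 2.3.3 under Python 3.11.15 and drawn in matplotlib 3.10.9.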

Additional observations from a re-analysis of the deposited data

How the results depend on the processing

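Under the alternatives the direction of the log2 fold change of the 9 tested genes was kept, except for *Etv2* without knockout replicate 2 (-0.028). The calls that changed were those of *Tie1*, which passed with library totals (-1.0) and without WT replicate 3 (-1.13), and of *Mef2c*, which did not pass without knockout replicate 2 (1.25) or without both WT libraries with the most *Alb* (1.07). Values that moved by more than 1 SD between libraries of a genotype were those of *Flt4* (0.20), *Tie1* (-0.50) and *Lmo2* (0.72) with the hepatocyte covariate, and of *Tie1* (-0.54), *Lmo2* (0.76) and *Mef2c* (1.07) without both WT libraries. Without those 2 libraries, which leaves 1 WT library assumed to vary like the others, 4386 genes were called (2360 higher and 2026 lower), 38 neighbours, 7 VEGF receptor effectors, 3 arterial, venous and Notch genes, 6 transcription factors and 1 blood cell gene, and fewer samples entered that test. With the hepatocyte covariate 11 effectors and 1 blood cell gene were called, and with DESeq2 1 blood cell gene. The cause was not tested. With each library left out in turn, the calls ranged from 5613 to 7409 over all genes, 3 to 5 of the 10 genes, 46 to 70 neighbours, 4 to 5 ligands and co-receptors, 13 to 17 effectors, 10 to 12 surface and junction genes, 4 to 6 arterial, venous and Notch genes, 8 to 10 transcription factors, 1 to 3 blood cell genes, 11 to 12 mesoderm genes and 5 to 7 MEF2 and heart genes. The lowest count of arterial, venous and Notch genes came without knockout replicate 2, and that of 1 blood cell gene without WT replicate 1 or any 1 of the knockout replicates. The replicate number was tried as a block: same-numbered samples deviated together with r = -0.154, 0.0995 and 0.245, so the numbers were not taken to pair the samples, and the block gave 6452 calls over all genes and 4 of the 10 genes. At this depth the counts of *Cdh5*, *Mef2c* and *Tie1*, at most 33 in any library, limit what can be said of them.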
